A study of Homo sapiens with 6 samples.

Results

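The windows described here were protein-coding promoters that gave a fair number of small RNA reads without lying beside a window of a small RNA gene. The cells were HEK293T, an established line of human embryonic kidney cells. All had received siRNA at 150 nM for 48 h, either a control (siControl, 3 libraries) or one targeting La (siLa, 3 libraries), whose gene is SSB, and no untransfected cells are among the libraries. The labels number the replicates and do not say that they came from separate cultures, so p-values measure the spread between these libraries. The deposited table counts reads in 53603 windows of 400 bp, and 22988 of them carry the protein-coding label. Each of these 22988 was taken to reach from 150 bp before its start site to 250 bp after it. A protein-coding window was kept where its raw counts summed to at least 20 over the 6 libraries and no window of a class other than protein-coding, lncRNA or DARK lay within 1000 bp. Histone clusters on chromosome 6 (26.0 to 27.9 Mb) and chromosome 1 (149.83 to 149.9 Mb) and 11 further windows were left out by position or name. This gave 489 windows in 437 separate regions, since 100 of the windows overlapped another and shared its reads. The windows were chosen by their summed raw count over both arms, so their levels are a description and carry no test.

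La binds the oligo(U) 3′ ends of new RNA polymerase III transcripts, and the title of the study asks about RNA polymerase III at protein-coding promoters. Most protein-coding genes are transcribed by RNA polymerase II, which often starts at GC-rich promoters, pauses shortly after the start and leaves short capped RNAs there. Introns of ribosomal protein genes also often hold snoRNAs, small RNAs that guide chemical modification of other RNAs. Per the labels' protocols, a phosphatase and a polynucleotide kinase were used in turn on the small RNA before library construction, which turns triphosphate 5′ ends into ligatable ones and leaves a cap in place.

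Where a promoter sequence was at hand, the promoters of the kept windows were GC-rich. Sequences came from a RefSeq set that had no entry for some of the windows. Windows without an entry have no sequence features here, so the shares below do not stand for all kept windows. Within that set, a protein-coding start lay within 50 bp of the window's own start in 272 windows. Over 300 bases around it, from 250 before to 50 after, the median GC content was 68.5% (lower quartile 62.2%), against 62.3% over all 22198 protein-coding promoters of the same length and 63.3% over 4439 promoters of protein-coding windows without a read. The run GGCGGCGGC, searched on both strands after the sequences had been seen, lay in 79 of 272 promoters (29%) against 9.45% of all. The run TTTT, whose RNA form ends RNA polymerase III transcripts, lay on either strand in 163 of 272 (59.9%) against 66.6% of all, and on the sense strand in the 50 bases from the start in 33 (12.1%) against 9.78%. TATAAA, the core of the TATA box, lay on either strand in 27 (9.93%) against 9.47% of all. By gene list, counted after the matches had been seen, it lay in 7 of 10 histone promoters (among them HIST2H3D and H2AFZ, not HIST2H2BF), 2 of 5 of chaperones (HSPA1A and HSPA1B, not HSPA5), 2 of 16 of splicing and RNA-binding factors, and 0 of 14 of ribosomal proteins. The internal promoter elements of tRNA genes, the A box and the B box, were searched on both strands by their consensus, and each lay in 1 promoter (0.368%), that of NALF1 for the A box and that of CTPS1 for the B box, against 0.329% and 0.176% of all. A match is a description of the letters and not evidence of a working site.

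The stretches below show this range of composition for windows whose counts are given later. Each is the RefSeq GRCh38.p14 sequence inside the window and upstream of the RefSeq start, 5′ to 3′ on the gene's strand, limited to bases outside GENCODE exons. Capitals mark runs of at least 4 T or 4 A and the motif TATAAA. HECTD4 (chr12:112382440-112382585, minus strand, 78.1% GC) and EHMT1 (chr9:137618907-137618962, plus strand, 78.6% GC) have the highest GC content of the stretches shown. H3C13, named HIST2H3D in GENCODE (chr1:149813694-149813843, minus strand, 38.7% GC), has the lowest. MAPRE1 (chr20:32819804-32819892, plus strand) has a TATA motif, SEPHS1 (chr10:13348299-13348443, minus strand) has T runs, and TRIOBP (chr22:37746104-37746227, plus strand) ends in an A run. ELL (chr19:18522128-18522243, minus strand) and PGK1 (chrX:78104098-78104173, plus strand) have no capital.
HECTD4: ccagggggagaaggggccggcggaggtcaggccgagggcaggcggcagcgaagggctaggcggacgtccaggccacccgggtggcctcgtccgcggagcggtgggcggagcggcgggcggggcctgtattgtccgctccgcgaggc
EHMT1: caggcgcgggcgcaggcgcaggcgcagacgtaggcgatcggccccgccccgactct
H3C13: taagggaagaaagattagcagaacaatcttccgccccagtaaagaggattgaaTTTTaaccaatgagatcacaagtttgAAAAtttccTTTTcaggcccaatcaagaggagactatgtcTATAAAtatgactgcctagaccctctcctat
MAPRE1: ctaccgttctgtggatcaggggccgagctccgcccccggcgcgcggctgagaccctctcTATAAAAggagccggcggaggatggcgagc
SEPHS1: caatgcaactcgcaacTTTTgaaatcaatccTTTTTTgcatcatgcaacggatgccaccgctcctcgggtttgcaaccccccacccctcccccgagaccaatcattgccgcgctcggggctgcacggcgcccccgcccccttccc
TRIOBP: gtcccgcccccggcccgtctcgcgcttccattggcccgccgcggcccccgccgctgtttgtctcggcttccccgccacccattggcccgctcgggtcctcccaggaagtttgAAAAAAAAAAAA
ELL: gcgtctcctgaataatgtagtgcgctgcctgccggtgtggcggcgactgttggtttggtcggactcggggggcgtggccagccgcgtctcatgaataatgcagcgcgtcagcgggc
PGK1: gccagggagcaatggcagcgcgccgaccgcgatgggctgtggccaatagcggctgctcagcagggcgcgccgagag

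The label of these windows held only in part. In GENCODE 29 and the RefSeq gene table, 10 of the 489 windows overlapped an annotated small RNA gene by at least 1 bp, although no window of a small RNA class lay within 1000 bp. The best-read window of all, PCG_38841 (GRCh38 chromosome 19, positions 49489713 to 49490112, plus strand), starts 2296 bp inside the ribosomal protein gene RPL13A and contains 84 bp of the intronic snoRNA SNORD32A. The SEC14L1 window PCG_36832 (chromosome 17, positions 77089005 to 77089404) overlapped SCARNA16, a small RNA of Cajal bodies, by 98 bp. The RPS20 window PCG_49045 (chromosome 8, positions 56073895 to 56074294) reached 7 bp into SNORD54. The KCTD19 window PCG_10146 (chromosome 16, positions 67321661 to 67322060) contained 327 bp of RN7SKP118, a 7SK pseudogene. The other 6 overlapped the miRNA genes MIR3613, MIR4523, MIR762 (in 2 BCL7C windows), MIR3652 and MIR632, and their summed counts ran from 20 to 43. Counts were not split by strand or read position, so the part of a window's reads that came from the small RNA gene cannot be given.

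Most windows were read only a few times. The summed count had a median of 30 and quartiles of 23 and 47, and 237 windows (48.5%) lay between 20 and 29. At the threshold, 49 windows had a summed count of 20, with means of 10.02 counts over siControl and 9.98 over siLa libraries. The 44 windows at 19 that met the rest of the rule had means of 8.09 and 10.91. Reads were concentrated in few windows. Of 51068 counts in all, RPL13A held 31.8%, the 4 best-read windows 55.0% and the 10 best-read 60.9%. A read was found in every library in 428 of the 489 windows. Gene names came from a start within 50 bp for 461 windows and from the nearest start within 400 bp for 24, and 4 stayed unnamed. Start sites were spread over both strands, 240 plus and 245 minus, and 196 of 448 lay within 100 bp of the annotated 5′ end of the gene, the others further inside it.

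Genes of protein synthesis, chromatin and the immediate early response were well represented among the 489 windows. Of all 22988 protein-coding windows, 2.13% were kept. Of windows at ribosomal protein genes, 28 of 138 were kept (20.3%), at histone genes 13 of 86, the left-out clusters counted among the 86 (15.1%), at translation factor genes 13 of 112 (11.6%), and at genes of splicing and RNA-binding factors 25 of 273 (9.16%). Immediate early genes, which cells switch on within minutes of a stimulus, had 6 of 17 (35.3%). Heat shock and chaperone genes had 9 of 130 (6.92%) and cytoskeleton genes 5 of 83 (6.02%). Solute carriers had 9 of 419 (2.15%), and zinc finger factors, the largest list, 8 of 815 (0.982%). Genes of RNA polymerase III machinery and La-related proteins had 3 of 73 (4.11%), at LARP1 (2 windows) and LARP6, with summed counts from 21 to 25. These shares describe where reads lay and carry no test, since the count chose the windows.

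**Figure D1:**
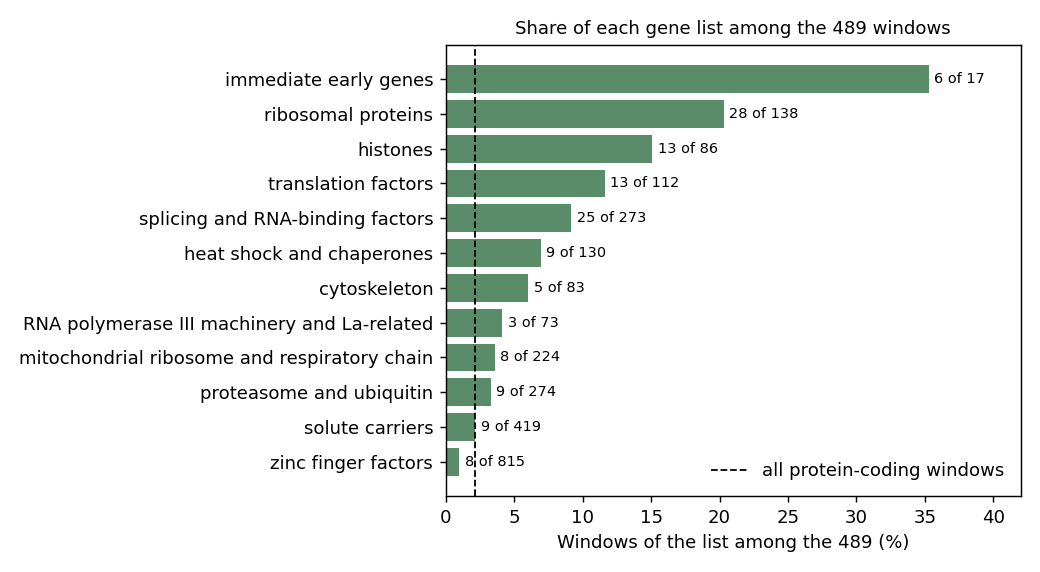
Bars give the percentage of the protein-coding windows of each gene list that were among the 489, with their numbers, and the dashed line is the share over all protein-coding windows (2.13%). Immediate early, ribosomal protein and histone genes have the longest bars, and zinc finger factors lie below the line.

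Levels in the best-read windows are given as raw counts in control replicates 1 to 3 and then La knockdown replicates 1 to 3. RPL13A, a protein of the large ribosomal subunit, had 5594, 3105 and 2182 counts and then 1750, 912 and 2705, so La knockdown replicate 3 lay inside the control range. Scaled by library size and TMM factors, its level was 981 ± 451 CPM (SD, n = 3) with siControl and 583 ± 294 with siLa. After scaling, La knockdown replicate 1 lay inside the control range too, at 627 CPM against 566 in control replicate 3. FZD6 (PCG_49329, chromosome 8, positions 103298715 to 103299114), a Frizzled receptor for Wnt ligands, had 666, 1049 and 1205 and then 1257, 1871 and 1215. Its CPM was higher in each La knockdown library than in any control library, at 265 ± 79.3 against 462 ± 84.8 (SD, n = 3). MAP1S (PCG_38072, chromosome 19, positions 17719330 to 17719729), a microtubule-associated protein, had 305, 360 and 506 and then 456, 639 and 426, which overlap. Its arms were separate only after scaling, at 106 ± 25.8 and 162 ± 27.1 CPM (SD, n = 3). The nearest pair of libraries had 131.2 CPM (control replicate 3) and 134.2 CPM (La knockdown replicate 3). SEC14L1, a lipid-binding protein, had 323, 236 and 344 and then 297, 403 and 263. MEX3C (PCG_37284), an RNA-binding ubiquitin ligase, had 73, 101 and 76 and then 59, 193 and 120. Both of these overlapped between the arms.

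The remaining windows of this group showed how far a single library could carry a mean. RGPD5 (PCG_40089, chromosome 2, positions 109794535 to 109794934), of a family of near-identical RanBP2-like genes whose copies can share reads, had 24, 34 and 460 counts and then 32, 69 and 52. MED13 (PCG_36573, chromosome 17, positions 62065029 to 62065428), a subunit of the Mediator kinase module, had 20, 46 and 423 and then 17, 65 and 36. Control replicate 3 stood apart in both. These were the only windows of the whole table, among those with at least 20 counts, in which the CPM of control replicate 3 was over 3 times that of any other library. RPS20, a protein of the small ribosomal subunit, had 111, 80 and 62 and then 48, 34 and 59. ELL (PCG_38111), an elongation factor of RNA polymerase II, had 26, 58 and 60 and then 37, 124 and 70. WBP1 (PCG_39808) had 90, 60 and 69 and then 38, 40 and 65. The CPM of RPS20, ELL and WBP1 overlapped between the arms.

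**Figure D2:**
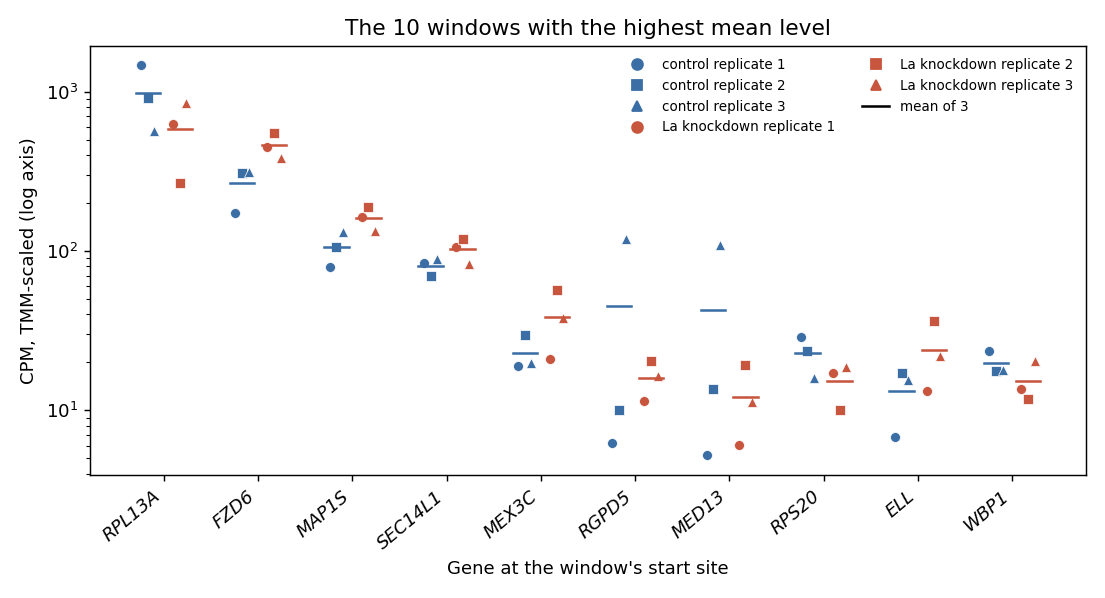
TMM-scaled CPM (log axis) of the 10 windows with the highest mean level, 1 point per library, with the mean of each arm as a line. Control replicate 3 lies far above the other libraries at RGPD5 and MED13, and the arms are separate at FZD6 and MAP1S.

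The libraries held between 3066299 and 4105806 counts. The SSB window PCG_40419 had 4, 3 and 3 counts in control and 1, 0 and 0 in La knockdown libraries (exact permutation test, two-sided p = 0.1, the smallest possible). Its neighbour PCG_12982 had 0, 0 and 1 and then 0, 2 and 0. A window of a promoter does not measure the mRNA, so neither the knockdown nor the markers of the cell line can be checked in these counts. The 489 windows held 0.250% ± 0.0115 of all siControl counts (SD, n = 3) and 0.249% ± 0.0114 of all siLa counts. That share rested on RPL13A. Without it, the share was 0.106%, 0.149% and 0.200% in the control libraries. The La knockdown libraries had 0.179%, 0.227% and 0.171%, which overlap them. After scaling, La knockdown replicate 2 had the highest CPM in 158 of the 489 windows and La knockdown replicate 1 in 126, while control replicate 1 had the lowest in 183. Control replicate 3 was closest to the La knockdown libraries, with a median of 1.56 CPM over the windows against 1.58, 2.06 and 2.15 in them and 1.04 and 1.48 in the other controls. The part of these library differences in the results below was not tested.

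Of the 489 windows, none passed the test of siLa against siControl. The filter on low counts kept 84 of the 489 windows (17.2%), with summed counts of at least 45. Enough reads in 3 libraries, which may be those of a single arm, let a window pass, so the 84 do not stand for all 489. MAPRE1, TMED9, SPEN and HSPA5 passed through the 3 siLa libraries alone, so a positive fitted value was built into their selection, and 0 windows passed through the siControl libraries alone. Of these, 0 were called higher and 0 lower (edgeR quasi-likelihood test at a Benjamini-Hochberg adjusted p under 0.05), where 0.658% of all 1064 tested windows were called higher and 4.79% lower. Of the 11 windows left out by name, 4 were called, all of them higher, so nothing is read from this count of 0. At an unadjusted p under 0.05, 11 of the 84 windows were higher and 1 was lower, where 9.68% of all 1064 tested windows were higher and 14.2% lower. As a description that the filter had a part in, the fitted log2 fold change was above 0 in 63 of the 84 and had a median of 0.37, against -0.05 over all 1064 windows. Without the filter the median over all 489 windows was 0.16, against 0.04 over all windows fitted. Windows fitted both ways had lower values there, 0.54 against 0.80 at FZD6 and -0.11 against 0.16 at JUN. The count of values above 0 therefore depends on the fit. In the authors' deposited table the median log2 fold change of the 489 windows was 0.13. Values in the 84 ran from -1.80 (MED13) to 2.18 (MAPRE1). Of the 489 windows, the authors' deposited table gave 0 an adjusted p under 0.05, where 0.00373% of all windows were called higher and 0.149% lower. The lowest adjusted p among them in the authors' deposited table was 0.304, at HLA-E (PCG_46296), named after its values were seen, which had 20, 15 and 9 counts and then 8, 0 and 1.

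**Figure D3:**
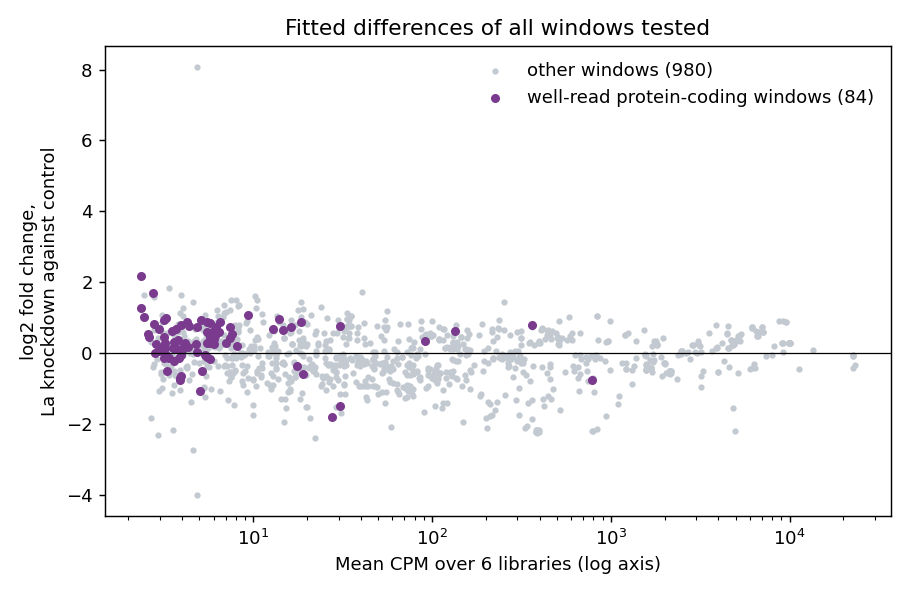
Fitted log2 fold change, La knockdown against control, by mean CPM (log axis) for the 1064 tested windows, with the 84 well-read protein-coding windows in purple. Of the purple points, 63 lie above 0 and most have a mean below 10 CPM.

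Over all 489 windows, tested or not, the arms did not overlap with higher La knockdown values in 74 (15.1%) and with lower values in 7 (1.43%). Among all 1690 windows of the table with at least 20 counts these shares were 13.6% and 12.1%, so the share of higher windows was near the background and that of lower windows was below it. The other 54 protein-coding windows with at least 20 counts had 22.2% higher and 3.70% lower, and 192 lncRNA windows 17.2% and 5.73%. In 462 tRNA windows 3.03% were higher and 34.0% lower, and these are 157 of the 205 lower windows in the background. The difference of these shares was not tested. With overlapping windows merged to 437 regions, 65 were higher and 6 lower. Without the 10 windows that overlap a small RNA gene, 73 were higher and 7 lower.

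The 8 tested windows with the largest positive fitted values and separate arms were at genes of several functions. MAPRE1 (PCG_41233, chromosome 20, positions 32819804 to 32820203), a protein of growing microtubule ends, had 0, 6 and 3 counts and then 12, 12 and 12, and its fitted log2 fold change was 2.18 (SE 0.67, edgeR adjusted p = 0.0959). TMED9 (PCG_45866, chromosome 5, positions 177592053 to 177592452), a cargo receptor of the early secretory pathway, had 3, 7 and 4 and then 11, 12 and 16, with 1.68 (SE 0.47, edgeR adjusted p = 0.0666). Both rest on few reads, and both entered the test only through their siLa libraries, where they are high, so their fitted values and p-values are biased towards a difference.

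SPEN (PCG_25972, chromosome 1, positions 15847701 to 15848100), an RNA-binding co-repressor that also entered only through siLa, had 3, 7 and 5 counts and then 10, 11 and 10, with 1.26 on the log2 scale (SE 0.46, edgeR adjusted p = 0.145). EHMT1 (PCG_50632, chromosome 9, positions 137618854 to 137619253), a histone H3 lysine methyltransferase, had 16, 27 and 23 and then 32, 50 and 38, with 1.08 (SE 0.34, edgeR adjusted p = 0.103). BPTF (PCG_36665, chromosome 17, positions 67825883 to 67826282), the largest subunit of the NURF chromatin remodeler, had 38, 32 and 35 and then 43, 62 and 68, with 0.95 (SE 0.30, edgeR adjusted p = 0.0969). The level of BPTF was 9.48 ± 0.424 CPM against 18.4 ± 3.0 (SD, n = 3).

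The other 3 were TRIOBP, HECTD4 and SEPHS1. TRIOBP (PCG_42371, chromosome 22, positions 37746104 to 37746503), an actin-binding protein, had 12, 12 and 15 counts and then 12, 31 and 21, so its arms were separate only after scaling. HECTD4 (PCG_31977, chromosome 12, positions 112382186 to 112382585), of the HECT ubiquitin ligase family, had 10, 11 and 12 and then 17, 18 and 16. SEPHS1 (PCG_28499, chromosome 10, positions 13348044 to 13348443), a selenophosphate synthetase homologue, had 11, 19 and 15 and then 21, 23 and 25. Their log2 fold changes were 0.93, 0.86 and 0.84 (edgeR adjusted p = 0.176, 0.161 and 0.186). FZD6 and MAP1S had 0.80 and 0.62 (SE 0.29 and 0.27, edgeR adjusted p = 0.145 and 0.193).

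Of the 74 windows with separate, higher arms, 16 were tested. Those not yet named include WNT5B (PCG_30947), a secreted Wnt ligand, with 36, 41 and 58 counts and then 61, 69 and 58 (log2 fold change 0.72, edgeR adjusted p = 0.181). GSPT1 (PCG_34510), a translation termination factor, had 12, 7 and 12 and then 13, 14 and 13. CPSF7 (PCG_29977), of the mRNA 3′ end cleavage machinery, had 5, 11 and 9 and then 11, 12 and 11. Their fitted values were 0.61 and 0.67. The untested windows with the most reads among the 74 were at CKB, GADD45B, RPL28, JUND and CD24. CKB (PCG_33274), the brain type creatine kinase, had 6, 4 and 7 and then 21, 8 and 13, and an overlapping CKB window (PCG_33275) that shares its reads had 4, 4 and 5 and then 16, 7 and 11. GADD45B (PCG_11275), a stress-induced signalling protein, had 4, 5 and 9 and then 10, 10 and 19. RPL28 (PCG_39066), of the large ribosomal subunit, had 9, 8 and 5 and then 13, 11 and 8. The cell surface protein CD24 (PCG_22258) had 7, 4 and 9 and then 7, 15 and 8. The arms of RPL28 and CD24 were separate only after scaling, as were those of WNT5B and CPSF7, whose raw counts met at 58 and 11. None of the untested windows named here exceeded 21 counts in a library, and their order by count was chosen after the values were seen.

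On the lower side, 2 tested windows had separate arms. ANKRD54 (PCG_42374, chromosome 22, positions 37843633 to 37844032), an ankyrin repeat protein, had 28, 20 and 28 counts and then 8, 10 and 12, and its fitted log2 fold change was -1.09 (SE 0.34, edgeR adjusted p = 0.103). It was the 1 window lower at an unadjusted p under 0.05. PGK1 (PCG_1589, chromosome X, positions 78104098 to 78104497), the glycolytic enzyme phosphoglycerate kinase, had 19, 19 and 16 and then 8, 7 and 12, with -0.75 (edgeR adjusted p = 0.241). The other 5 windows with separate, lower La knockdown values were too weakly read to test. RPS21 (PCG_41594), of the small ribosomal subunit, had the most counts among them, 15, 9 and 11 and then 6, 7 and 4. SARS (PCG_27054), the seryl-tRNA synthetase of the cytosol, had 6, 7 and 6 and then 3, 2 and 4. HNRNPA1P48 (PCG_34913), a pseudogene of an RNA-binding protein whose reads can be shared with the parent gene, had 8, 5 and 4 and then 1, 2 and 2. The other 2 were overlapping windows at CCDC80, the better-read of which (PCG_14706) had 10, 5 and 4 and then 1, 3 and 0.

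**Figure D4:**
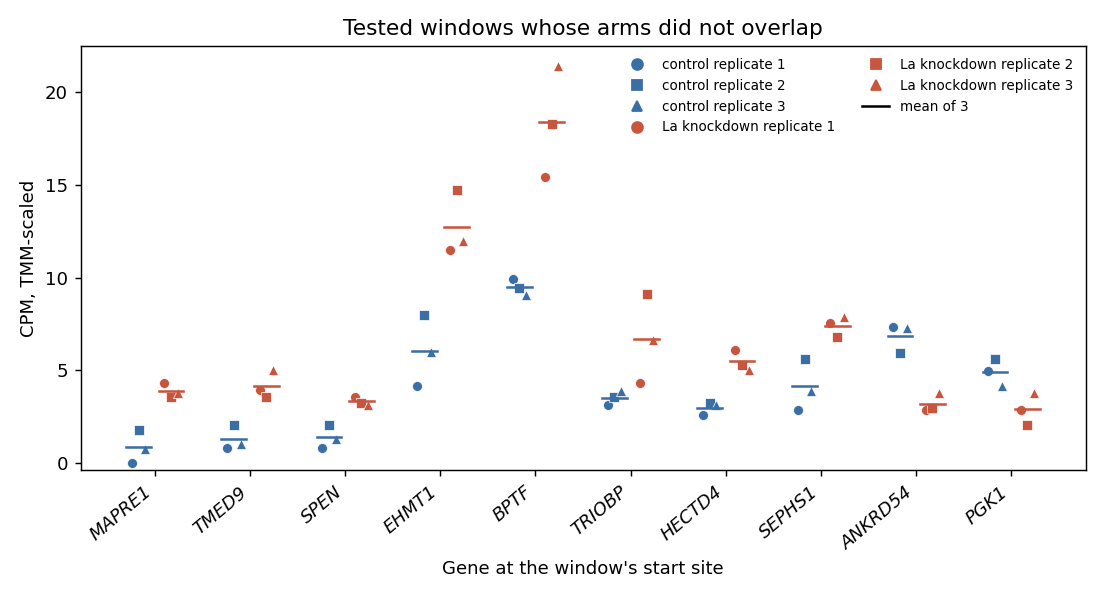
TMM-scaled CPM of the 8 windows with the largest positive and the 2 with negative fitted values among tested windows whose arms did not overlap, 1 point per library, with the mean of each arm as a line. La knockdown points lie above control points from MAPRE1 to SEPHS1 and below them at ANKRD54 and PGK1.

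Some windows passed the test under other settings. DESeq2 called BPTF (1.03, adjusted p = 0.0319) and MAPRE1 (2.27, adjusted p = 0.0448), where it called 2.16% of all tested windows higher and 7.14% lower. Upper quartile factors, which moved the median of all windows from -0.05 to 0.26, called BPTF, MAPRE1, TMED9, FZD6 and EHMT1 (edgeR adjusted p from 0.0426 to 0.0495), where 5.45% were called higher and 3.38% lower. Under that scaling 113 of the 489 windows were higher and 4 lower without overlap, against backgrounds of 28.3% and 5.86%. A replicate block called MAPRE1 (2.24) and TMED9 (1.69), where 1.88% were called higher and 8.27% lower (edgeR adjusted p = 0.00141 and 0.0179). The labels do not say that same-numbered libraries are paired. MAPRE1 and TMED9 entered each of these fits through the siLa libraries alone, so their calls lend no support. Without control replicate 2 the PAK1 window PCG_30519, low in both controls left, was called (1, 5 and 0 counts and then 11, 15 and 7, edgeR adjusted p = 0.0279), where 0.175% of 1140 windows were called higher and 2.54% lower. With 1 and 0 counts in those controls, it entered this fit through siLa libraries alone, so its call lends no support either.

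MED13 and RGPD5 were called lower without the filter on low counts (log2 fold change -2.01 and -1.69, edgeR adjusted p = 9.65e-06 and 0.000445), where 0.0183% of 21830 windows were called higher and 0.476% lower. With the filter their values were -1.80 and -1.49 (SE 0.90 and 0.89, edgeR adjusted p = 0.236 and 0.289). Without control replicate 3 they were 0.41 and 1.00, so their direction turned without that library. The median of the tested windows was 0.69 without control replicate 3 and 0.18 without La knockdown replicate 2.

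By function, 0 windows of any gene list passed the test, and their values were spread. At ribosomal protein genes 7 windows were tested, 5 with positive fitted values and a median of 0.18. RPS14 had 16, 16 and 30 counts and then 22, 35 and 30, with a fitted value of 0.73 (log2, edgeR adjusted p = 0.233). Its arms were separate only after scaling, by 7.888 CPM in La knockdown replicate 1 against 7.776 in control replicate 3. RPL13A and RPS20, the windows that contain snoRNA bases, had negative fitted values of -0.75 and -0.59 (edgeR adjusted p = 0.280 and 0.291). Of the 28 ribosomal protein windows, 4 were higher and 1 lower without overlap, where 13.6% and 12.1% of all windows with at least 20 counts were, so these shares lie near the background or below it.

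Of the 3 tested translation factor windows, EIF3J and EIF1, initiation factors, had 0.87 and 0.35, and EEF1A1, the elongation factor that delivers aminoacyl-tRNA, had -0.23. EIF3J had 13, 15 and 23 counts and then 15, 39 and 26. EIF1 had 16, 20 and 22 and then 18, 26 and 19, and EEF1A1 had 18, 12 and 13 and then 9, 14 and 8. The fourth best-read of that list, EIF3E, had 8, 12 and 4 and then 5, 8 and 7 and was not tested. All 5 tested windows of splicing and RNA-binding factors had positive fitted values, with a median of 0.27. Of all 84 tested windows 63 had positive values, so nothing is read from this direction. DDX5, an RNA helicase, had 6, 11 and 23 and then 23, 22 and 11, which overlap. HNRNPH1 had 2 overlapping tested windows that share reads, and the better-read of them had 10, 22 and 23 and then 16, 27 and 14. HNRNPA2B1 had 5, 5 and 19 and then 10, 6 and 13.

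The fitted values of the 3 tested histone windows lay between -0.07 and 0.11. HIST2H3D had 24, 14 and 23 counts and then 24, 14 and 10, a log2 fold change of -0.07 (SE 0.43). HIST2H3PS2 had 6, 18 and 29 and then 14, 23 and 9, with 0.03, and HIST2H2BF had 15, 12 and 13 and then 9, 20 and 8, with 0.11. H2AFX, the variant phosphorylated at DNA breaks, had 8, 5 and 11 and then 9, 6 and 9. Of the 13 histone windows 0 had separate arms in either direction, a count too small to set against those shares of all windows.

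Chaperone windows tested were HSPA1B and HSPA5. HSPA1B, a stress-induced HSP70, had 10, 15 and 10 counts and then 14, 14 and 9, with a log2 fold change of 0.31. HSPA5, the HSP70 of the endoplasmic reticulum, had 5, 7 and 10 and then 11, 11 and 11, with 0.82 (edgeR adjusted p = 0.239) and separate arms, having entered the test through siLa alone. CCT6A, a subunit of the chaperonin of the cytosol, had 9, 15 and 5 and then 8, 8 and 2, and DNAJC1 had 8, 4 and 7 and then 15, 8 and 4. Neither was tested. Immediate early windows were low in reads. JUN had 16, 15 and 6 and then 12, 12 and 11, with 0.16, and JUND had 9, 7 and 7 and then 10, 8 and 9. The MYC window had 3, 8 and 7 and then 10, 5 and 4, and FOSB had 6, 0 and 4 and then 5, 9 and 5. The raw counts of JUND and FOSB overlapped between the arms, and only after scaling were the siLa values higher, at JUND by 2.357 against 2.349 CPM for the nearest pair of libraries.

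The remaining lists had at most 1 tested window each. COX20, an assembly factor of the respiratory chain, had 12, 9 and 16 counts and then 10, 20 and 11, with a log2 fold change of 0.38. NDUFB11, of respiratory complex I, had 5, 7 and 2 and then 9, 12 and 7, and ATP5IF1, an inhibitor of the ATP synthase, had 5, 4 and 5 and then 6, 11 and 6. Both had separate arms after scaling and were not tested. ACTG1, a cytoplasmic actin, had 17, 16 and 15 and then 20, 15 and 13, with 0.25. SLCO3A1, an organic anion transporter, had 12, 14 and 31 and then 17, 40 and 17, with 0.60. Of the untested proteasome and ubiquitin windows UBE2S had the most reads, 4, 8 and 10 and then 7, 1 and 13, and 0 of 9 had separate arms, where 13.6% of all windows were higher and 12.1% lower. Among zinc finger factors, ZBTB2 had 4, 2 and 7 and then 11, 10 and 7, and ZNF703 had 1, 1 and 4 and then 10, 6 and 8, both with separate arms after scaling. The LARP1 windows had 6, 2 and 2 and then 3, 8 and 4 in the better-read of the 2, and LARP6 had 4, 5 and 4 and then 4, 4 and 2. LARP1 and LARP6 are relatives of La, and their arms overlapped.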

How the data were processed

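Raw counts per window, as deposited by the authors, were used as they stand. Per the submitters' processing notes, Trim Galore, Bowtie2, bedtools and edgeR were used with GRCh38, in roles, settings and versions not given in the sources used here; strandedness and the treatment of multi-mapping reads are not given either. The deposited comparison gives a log2 fold change, a log2 CPM, an F score and p-values by the authors. Window starts were shifted by 1 to browser positions. A start site was taken to lie 150 bp inside each protein-coding window. In 53.4% of the 22988 protein-coding windows, that point, from either side, lay within 1 bp of a GENCODE 29 start. Counts were fitted with edgeR 4.0.16 (R 4.3.3; filterByExpr defaults, TMM, quasi-likelihood, arm only) over all 1064 windows passing the filter. Replicates of an arm correlated with r from 0.84 to 0.92 over the tested windows described here (log2 scale, across windows, which are not independent). On simulated data (3 sets, 200 windows changed by 2 on the log2 scale, 1064 windows), 98.4% of changed windows were recovered. Every window had the same dispersion there and smaller changes were not simulated, so how often those would be found is not known. Promoter sequences are from a RefSeq set that had no entry for some of the windows. The windows and lists were chosen with earlier results of these data known. Named windows were the 10 with the highest mean CPM, up to 8 in each direction with the largest fitted value and separate arms, and up to 4 of each list. Alternatives were RLE, library size alone, upper quartile factors, DESeq2 1.42.0, other filters, a replicate block, and each library left out. Figures used matplotlib 3.10.9.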

Additional observations from a re-analysis of the deposited data

How the results depend on the processing

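Called windows numbered 0 in each direction with all libraries. They became 5 higher with upper quartile factors, 2 higher with DESeq2, 2 higher with a replicate block and 2 lower without a filter. Leaving out 1 library gave 0 to 1 higher and 0 lower. Same-numbered libraries had correlations of deviations of 0.14, 0.23 and -0.46. These values differ in sign and do not settle whether the numbers pair the libraries. The median log2 fold change of 0.37 became 0.68 with upper quartile factors, 0.16 without a filter, and from 0.18 to 0.69 with 1 library left out. Windows with separate arms, 74 higher and 7 lower, became 113 and 4 with upper quartile factors, and 19 and 3 at a summed count of at least 50, which keeps 110 windows. The share over all windows at that threshold was not computed, so nothing is read from the counts of 19 and 3. The difference in share of counts, -0.00105 percentage points, ranged from -0.00505 to 0.00552 with 1 library left out. It became 0.0405 without RPL13A and 0.0393 without windows that overlap a small RNA gene, an alternative chosen after seeing the data. Over 252 refits of the 20 named windows, 239 kept their direction and side of the threshold, 11 passed it and 2 reversed, RGPD5 (-2.0 to 1.00 with 1 library left out) and MED13 (-2.32 to 0.41), both reversed without control replicate 3. Apart from fewer windows or libraries entering a fit, the cause was not tested. Few reads left 405 of 489 windows untested.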

Other observations

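Some windows were read mainly in a single library. Besides MED13 and RGPD5, 4 of the 489 windows had a CPM in 1 library over 3 times that of any other. LUC7L3 (PCG_36464), a splicing factor, had 6, 4 and 7 counts with siControl, then 1, 22 and 4 with siLa. METAP2 (PCG_31804), a methionine aminopeptidase, had 6, 5 and 3 and then 4, 19 and 1. RBM26 (PCG_32501), an RNA-binding protein, had 3, 2 and 1 and then 3, 13 and 3. All 3 were high in La knockdown replicate 2, where 13 windows of the whole table stood out in this way. GTF2IRD2B (PCG_47918), one of near-identical gene copies that can share reads, had 1, 16 and 6 and then 0, 3 and 3, and was high in control replicate 2.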
